A study of Drosophila melanogaster with 15 samples.

Results

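Genes that formed R-loops in S2 cells were compared, gene by gene, with those that formed them in embryos 2–3 h after egg laying. An R-loop gene is here a gene overlapped by at least 1 bp of an ssDRIP-seq peak on its own strand. Of the 17796 genes annotated on the chromosomes that carry peaks, 5841 had such a peak in at least 1 of the 2 lists. These 5841 genes (32.8%, 95% Wilson interval 32.1 to 33.5) are described here.

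S2 is a long-kept Drosophila cell line that was started from embryos late in development. The embryos came from Oregon R flies, and neither sample type carried a transgene or a treatment. Embryos of 14–16 h, from the same flies, are given beside them. Each sample type had 2 ssDRIP replicates, 2 inputs and 1 ssDRIP sample digested with RNase H, which removes the RNA of a hybrid. In ssDRIP-seq, fragments that hold an RNA:DNA hybrid are recovered with the S9.6 antibody and their DNA is sequenced with its strand kept. The replicates were pooled into 1 peak list per sample type, of 28464 peaks for S2 cells, 22581 for 2–3 h embryos and 28961 for 14–16 h embryos. No value below therefore has a replicate error, and no difference between the lists was tested. The lists carry no height or read count, so the depth behind a peak is unknown. The study itself reports fewer peaks for S2 cells, more for 14–16 h embryos and the same number for 2–3 h embryos. Why these numbers differ was not examined. The Wilson intervals cover counting error only, and neighbouring genes and peaks are not independent.

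An R-loop is a hybrid of RNA with the DNA strand that templated it, with the other DNA strand left single. R-loops form mostly where RNA polymerase is at work, and hybrids whose RNA is rich in purines are the more stable ones. At 2–3 h the fly embryo passes from maternal transcripts to transcription of its own genome. S2 cells have hemocyte-like properties, hemocytes being the blood cells of the fly. A peak is not a measure of transcription, and expression was not analysed here.

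Peaks that overlapped a gene on its own strand made up 39.6% of the S2 list and 42.5% of the 2–3 h list. Another 30.1% of S2 peaks and 29.4% of 2–3 h peaks lay only on the other strand of a gene. The remaining 30.3% and 28.1% lay in no gene. The study reports a higher share of sense R-loops in these sample types, and the difference was not examined. By the rule, S2 cells had peaks in 4791 genes and 2–3 h embryos in 4169. Peaks in S2 cells alone were found in 1672 genes, which is 9.40% of all genes (8.98 to 9.83). Peaks in 2–3 h embryos alone were found in 1050 genes, which is 5.90% (5.56 to 6.26). Both lists held peaks in 3119 genes, which is 17.5% (17.0 to 18.1). The shared genes made up 65.1% of the R-loop genes of S2 cells and 74.8% of those of 2–3 h embryos. Neither list held a peak in 11955 genes. The S2 list is also the longer of the pair. With as many of the widest S2 peaks as the 2–3 h list holds, 1301 genes were of S2 cells alone and 1315 of 2–3 h embryos alone.

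Most genes with peaks in 1 list only rested on a single peak. That was so for 1435 of the 1672 genes of S2 cells (85.8%) and for 860 of the 1050 genes of 2–3 h embryos (81.9%). At least 3 peaks were found in 69 genes of S2 cells alone and in 79 genes of 2–3 h embryos alone. Few genes met the rule by a short overlap alone. The longest overlap with a peak was under 50 bp in 44 genes of S2 cells alone and in 32 genes of 2–3 h embryos alone. On the other side of the rule, 103 of the genes of S2 cells alone had a 2–3 h peak on their strand outside the gene but within 500 bp. For the genes of 2–3 h embryos alone, 66 had such an S2 peak. A peak of the absent list lay on the other strand of 227 genes (13.6%) of S2 cells alone and of 205 genes (19.5%) of 2–3 h embryos alone. At least 1 of these 2 cases held for 312 genes (18.7%) of S2 cells alone and 258 (24.6%) of 2–3 h embryos alone. All peaks were shared with another gene in 221 genes (13.2%) of S2 cells alone and 159 (15.1%) of 2–3 h embryos alone.

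Among the 3119 shared genes, the number of peaks was equal in 1645 (52.7%, 51.0 to 54.5), higher in S2 cells in 898 (28.8%, 27.2 to 30.4) and higher in 2–3 h embryos in 576 (18.5%, 17.1 to 19.9). The median difference was 0 peaks, and 74.8% of the shared genes differed by at most 1 peak. A gene was counted as changed where 1 list held at least 2 times as many peaks as the other and at least 3 more. By this rule 303 genes, 1.70% of all genes, changed towards S2 cells, of which 69 had peaks in S2 cells only. Another 217 genes, 1.22% of all genes, changed towards 2–3 h embryos, of which 79 had peaks in 2–3 h embryos only. With as many of the widest S2 peaks as the 2–3 h list holds, 198 genes changed towards S2 cells and 295 towards 2–3 h embryos, so the order of these counts turned round. The same setting gave 667 shared genes with more peaks in S2 cells and 681 with more in 2–3 h embryos, and this order turned round too.

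**Figure D1:**
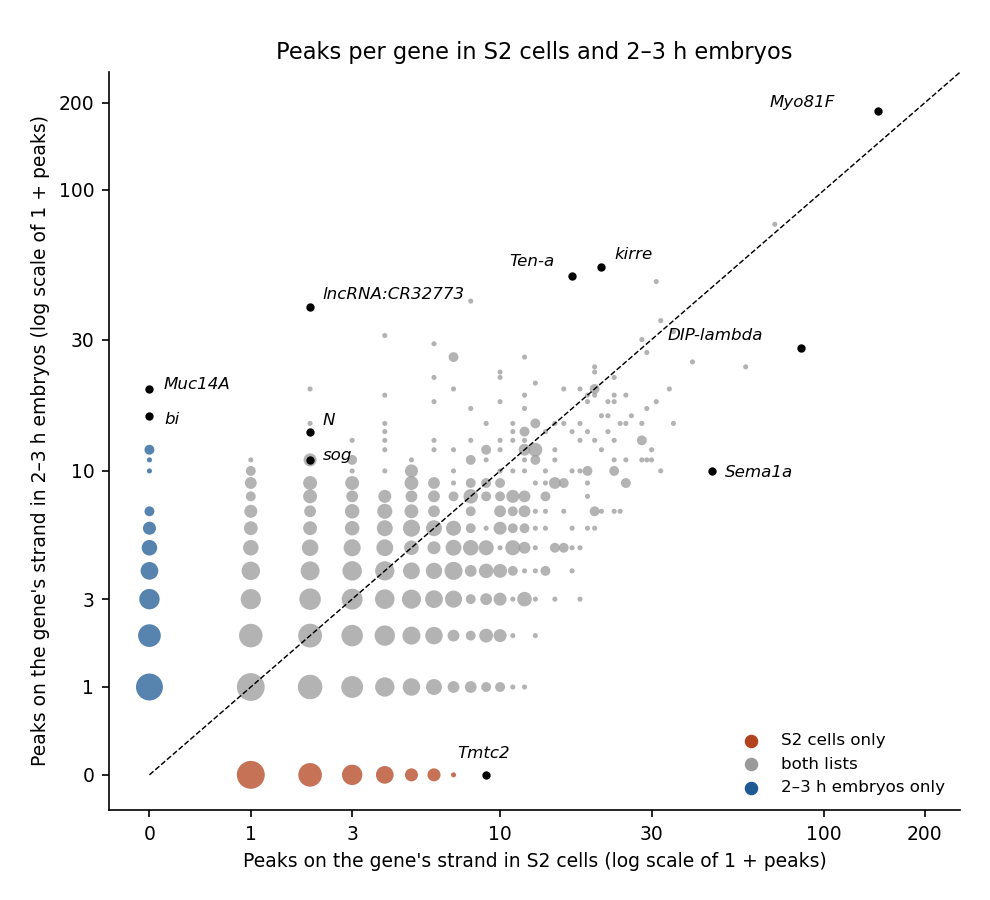
Each point is a pair of peak numbers, in S2 cells (x axis) and 2–3 h embryos (y axis), on a log scale of 1 plus the number of peaks on the gene's strand. Point area grows with the logarithm of the number of genes at that pair, colours give the list that holds the gene, and the dashed line marks equal numbers. A pair of 1 and 1 holds 1349 genes, Sema1a (46 against 10) lies far to the S2 side, and Muc14A (0 against 20) and lncRNA:CR32773 (2 against 39) lie far to the side of 2–3 h embryos.

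The genes with the largest surplus in S2 cells were long, from 93010 bp at Snoo to 396036 bp at CG17684, and 3 of the first 6 lay near the centromere of 2R. Sema1a, a transmembrane semaphorin that steers axons, had 46 peaks in S2 cells against 10 in 2–3 h embryos, with 20 in 14–16 h embryos. Its peaks covered 33588 bp in S2 cells and 4363 bp in 2–3 h embryos, nearly all within introns. DIP-lambda, an immunoglobulin-domain protein of the family that binds Dpr receptors, had 85 peaks against 28. It lies on 2R from 326768 to 705848 (dm6), close to the centromere, as do CG17684 with 58 against 24 peaks and dpr21, a Dpr receptor gene, with 32 against 10. On 2L, mtgo, which encodes a fibronectin type III domain protein, had 35 against 15 peaks. Snoo, a relative of the Ski and Sno oncogenes that act in TGF-beta signalling, had 30 against 11.

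In all of these genes the other strand carried a like surplus, with 79 peaks in S2 cells against 18 in 2–3 h embryos at DIP-lambda, and 45 against 9 at Sema1a. The same held across the changed genes. Of the 303 genes that changed towards S2 cells, 247 (81.5%) also had more peaks on the other strand in S2 cells and 9 had fewer. Of the 217 genes that changed towards 2–3 h embryos, 171 (78.8%) also had more peaks on the other strand in 2–3 h embryos and 13 had fewer.

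The genes with the largest surplus in 2–3 h embryos lay mostly on the X. The exception is Myo81F, a myosin gene of 1965857 bp at the centromere end of 3R, with 145 peaks in S2 cells against 187 in 2–3 h embryos. Pzl on 3R, with 71 against 76, and lovit on 3L, with 31 against 48, were also among the shared genes with the most peaks. Pzl had more bp covered in S2 cells, with 41123 against 37887. lncRNA:CR32773, a long noncoding RNA of 223710 bp, had 2 peaks in S2 cells against 39 in 2–3 h embryos, and lncRNA:CR44833 had 4 against 31. lncRNA:CR44357 had 8 peaks in S2 cells and 41 in 2–3 h embryos. It shares 6 of its S2 peaks and 18 of its 2–3 h peaks with CG1677, which lies within it on the same strand. Ten-a, a teneurin that joins partner neurons and muscles at synapses, had 17 against 50, and kirre, an immunoglobulin-domain receptor of myoblast fusion, had 21 against 54. All 5 X-linked genes had still more peaks in 14–16 h embryos, from 43 at lncRNA:CR44833 to 99 at kirre.

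The genes of S2 cells alone with the most peaks were Tmtc2 with 9 peaks, Nmdar2 with 7, and sqa, alph, ru and CG43861 with 6 each. Nmdar2 encodes a subunit of the NMDA-type glutamate receptor, sqa a kinase of myosin light chain, alph a protein phosphatase, and ru a rhomboid protease that releases ligands of the EGF receptor. These peaks were mostly intronic. In 14–16 h embryos alph had no peak and the other 5 genes had 1 to 3. The genes of 2–3 h embryos alone with the most peaks were Muc14A, a mucin gene, with 20, the T-box transcription factor gene bi with 16, CG44195 and the presynaptic calcium channel gene cac with 12 each, the nicotinic acetylcholine receptor subunit gene nAChRalpha3 with 11 and CG3655 with 10. In 14–16 h embryos bi had 23 peaks, cac 22, nAChRalpha3 19 and CG3655 10, while Muc14A and CG44195 had 0. All but CG44195, on 3L, are on the X.

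**Figure D2:**
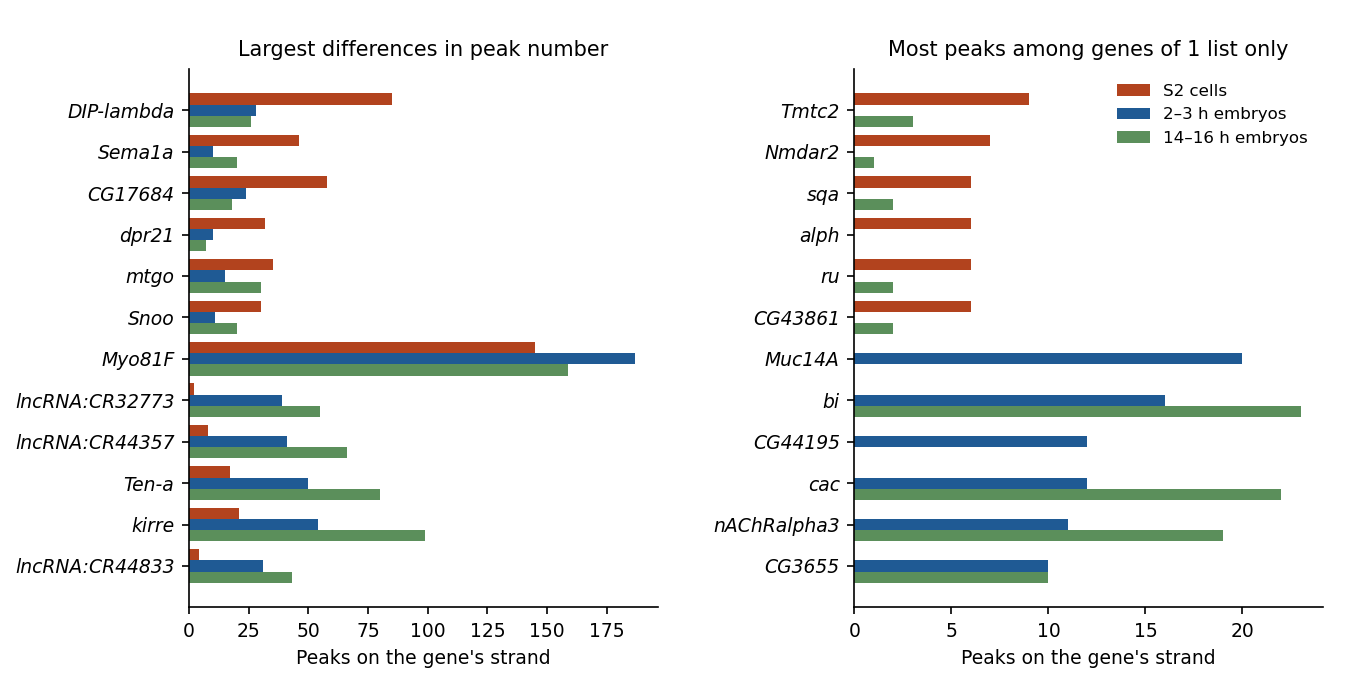
Peaks on the gene's strand (x axis) in S2 cells, 2–3 h embryos and 14–16 h embryos, for the genes with the largest differences (left) and the genes of 1 list only with the most peaks (right). The 5 X-linked genes on the left had 43 to 99 peaks in 14–16 h embryos, while on the right bi, cac, nAChRalpha3 and CG3655 had 10 to 23 and Muc14A and CG44195 had 0.

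The sequences below are the 300 bp at the centre of the widest peak of such a gene that touches no UTR, read from dm6 on the strand of the peak. They are shown because the classes of genes differed in the tracts their peaks hold. Capitals mark runs of at least 8 A or of at least 12 purines, which are A or G. The first 3 are from genes of S2 cells alone. The peak of Tmtc2 (chr2L:933947-934246, forward strand, intron) held no such tract, and those of ru (chr3L:1382884-1383183, forward strand, intron) and CG43861 (chr2L:19975214-19975513, reverse strand, intron) held purine tracts with G.
Tmtc2: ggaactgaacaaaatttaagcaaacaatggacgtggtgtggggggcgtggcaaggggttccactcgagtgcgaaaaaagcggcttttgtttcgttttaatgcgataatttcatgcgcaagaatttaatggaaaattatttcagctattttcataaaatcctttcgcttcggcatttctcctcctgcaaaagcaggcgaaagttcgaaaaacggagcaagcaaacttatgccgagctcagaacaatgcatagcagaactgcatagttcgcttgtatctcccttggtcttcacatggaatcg
ru: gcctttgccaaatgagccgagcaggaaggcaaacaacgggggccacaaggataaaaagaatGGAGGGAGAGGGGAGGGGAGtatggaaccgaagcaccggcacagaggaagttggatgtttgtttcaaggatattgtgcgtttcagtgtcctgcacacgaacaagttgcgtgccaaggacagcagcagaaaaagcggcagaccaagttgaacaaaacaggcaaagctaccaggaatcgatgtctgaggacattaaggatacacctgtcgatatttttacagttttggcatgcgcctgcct
CG43861: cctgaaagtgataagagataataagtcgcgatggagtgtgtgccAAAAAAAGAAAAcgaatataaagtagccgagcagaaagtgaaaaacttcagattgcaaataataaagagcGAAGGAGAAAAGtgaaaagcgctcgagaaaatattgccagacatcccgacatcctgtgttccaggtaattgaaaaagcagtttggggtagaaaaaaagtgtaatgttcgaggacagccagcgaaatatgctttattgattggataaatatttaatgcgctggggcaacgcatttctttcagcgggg
The next is from bi (chrX:4455390-4455689, forward strand, intron), a gene of 2–3 h embryos alone, and holds an A tract.
bi: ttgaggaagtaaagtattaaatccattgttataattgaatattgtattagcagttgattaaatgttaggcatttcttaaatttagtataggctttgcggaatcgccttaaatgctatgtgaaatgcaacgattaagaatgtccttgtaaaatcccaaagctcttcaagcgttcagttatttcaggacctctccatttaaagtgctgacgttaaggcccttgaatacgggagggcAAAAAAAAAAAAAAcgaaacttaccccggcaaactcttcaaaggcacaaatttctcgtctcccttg
The last is from CG44195 (chr3L:7685341-7685640, reverse strand), again of 2–3 h embryos alone, and holds neither tract.
CG44195: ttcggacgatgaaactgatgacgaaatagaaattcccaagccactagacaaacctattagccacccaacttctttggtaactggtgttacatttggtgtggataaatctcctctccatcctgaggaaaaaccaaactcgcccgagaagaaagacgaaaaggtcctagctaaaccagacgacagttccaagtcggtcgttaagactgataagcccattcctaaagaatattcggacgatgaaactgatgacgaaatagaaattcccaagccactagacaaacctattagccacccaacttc

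Genes on 2R were left out of the windows, which removed sqa, where 2 of 6 S2 peaks held an A tract. Of the windows drawn by this rule, 0 of 5 from S2 cells and 2 of 6 from 2–3 h embryos held an A tract. A purine tract was held by 2 of 5 and 2 of 6. The windows shown were picked from these after they had been read. The CG44195 window lies whole in an exon of Ank2, a giant ankyrin of neurons that ties membrane proteins to the spectrin skeleton. Both genes run on the same strand, and all 12 peaks of CG44195 were also peaks of Ank2, for which S2 cells gave 2 peaks, 2–3 h embryos 15 and 14–16 h embryos 2. Of the 271 words of 30 bases in this window, 241 (88.9%) occurred again on chromosome 3L. For the widest peak of Muc14A, within its exon, 248 of 271 words (91.5%) occurred again on the X. In the other windows of these genes 0 words did, except for nAChRalpha3 with 53. The reference marks 80.7% of the peak bases of CG44195 and 93.6% of those of Muc14A as repeats, against 26.3% of all 2–3 h peaks in genes. Among genes of S2 cells alone, it marks 73.9% of the S2 peak bases of sqa, against 22.4% of all S2 peaks in genes. How reads with several matches were placed is not given in the sources used here, so the position of these peaks within the repeats is uncertain.

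An A tract in the central 300 bp was found in 9.51% of S2 peaks in genes of S2 cells alone (8.28 to 10.9, 1935 peaks) and in 51.6% of 2–3 h peaks in genes of 2–3 h embryos alone (48.9 to 54.2, 1365 peaks). In the shared genes it was found in 27.9% of 9425 S2 peaks and in 48.2% of 8304 2–3 h peaks. Among all 300 bp windows of the chromosomes, on either strand, 7.92% held such a tract. Purine tracts differed less, with 45.9% of S2 peaks in genes of S2 cells alone (43.7 to 48.1) and 54.8% of 2–3 h peaks in genes of 2–3 h embryos alone (52.1 to 57.4), against 11.7% of all windows. T tracts on the same strand were found in 4.03% of these S2 peaks and in 7.91% of these 2–3 h peaks, and in 7.92% of all windows. Windows of genes with peaks in neither list, read on the gene's strand, held fewer tracts than all windows. Their shares were 3.76% for A tracts, 6.90% for purine tracts and 4.31% for T tracts. The mean GC skew, (G - C)/(G + C), was 0.104 in S2 peaks of genes of S2 cells alone and 0.0111 in 2–3 h peaks of genes of 2–3 h embryos alone. The mean AT skew, (A - T)/(A + T), was 0.161 in the S2 peaks and 0.177 in the 2–3 h peaks.

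The difference in A tracts held on the X, on 3L and on the other large arms together. On the X, 15.0% of S2 peaks in genes of S2 cells alone (140 peaks) and 54.8% of 2–3 h peaks in genes of 2–3 h embryos alone (542 peaks) held an A tract. On 3L these shares were 8.54% in the S2 peaks and 49.6% in the 2–3 h peaks, and on 2L, 2R and 3R together 9.17% in the S2 peaks and 49.7% in the 2–3 h peaks. Within shared genes, S2 peaks that touched no 2–3 h peak held an A tract in 15.9% of cases (14.8 to 17.0), and 2–3 h peaks that touched no S2 peak in 60.8% (59.0 to 62.5). Peaks that did touch were closer, with 37.5% of S2 peaks and 40.8% of 2–3 h peaks.

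The tracts also followed the peaks of 14–16 h embryos. In genes of S2 cells alone, S2 peaks that touched a 14–16 h peak held an A tract in 43.3% of cases (35.8 to 51.1), and those that touched none in 6.52% (5.47 to 7.77). In genes of 2–3 h embryos alone, these shares of the 2–3 h peaks were 72.6% (69.4 to 75.5) and 18.9% (15.8 to 22.5). Over whole lists, an A tract was found in 25.8% of S2 peaks, 49.2% of 2–3 h peaks and 61.2% of 14–16 h peaks.

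**Figure D3:**
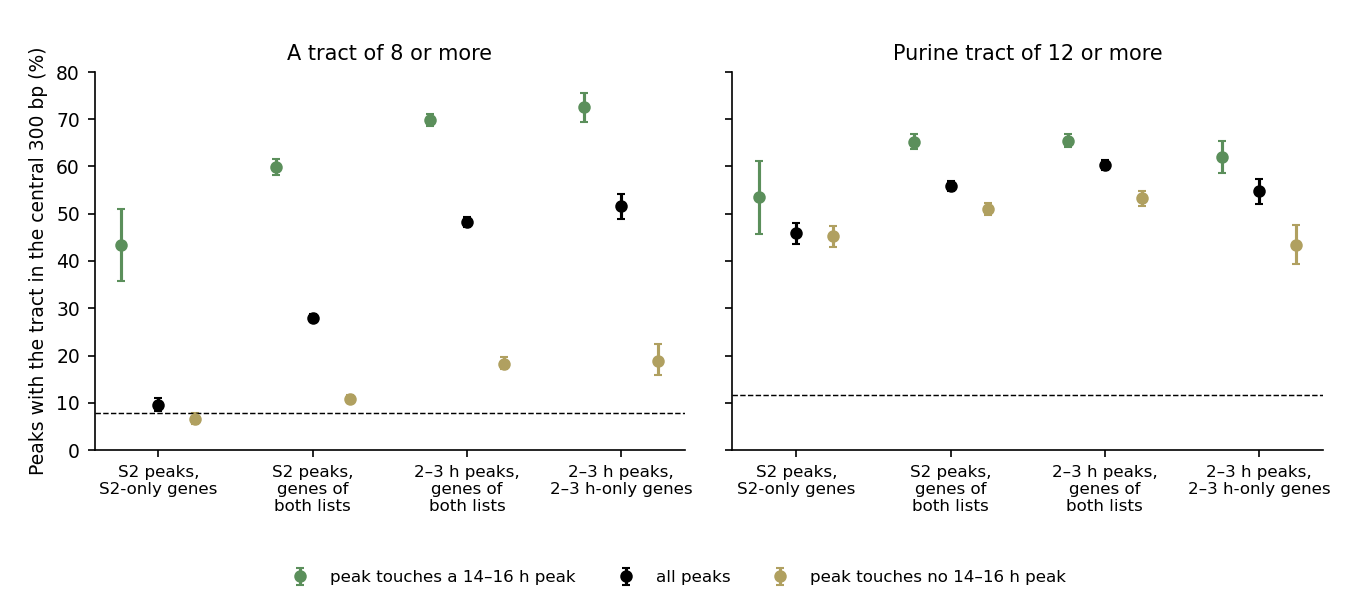
Share of peaks with an A tract (left) or a purine tract (right) in their central 300 bp (y axis, %), for S2 peaks and 2–3 h peaks by the class of their gene. Black points are all peaks of the class, green and ochre points those that do and do not touch a 14–16 h peak, bars are 95% Wilson intervals, and dashed lines are the shares of all windows of the chromosomes. Over all peaks of a class (black), A tracts range from 9.51% in genes of S2 cells alone to 51.6% in genes of 2–3 h embryos alone, and purine tracts from 45.9% to 60.4%.

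The 2 classes of genes stood apart in 14–16 h embryos too, a list the rule did not use. Of the genes of S2 cells alone, 295 of 1672 (17.6%, 15.9 to 19.5) had a 14–16 h peak on their strand. Of the genes of 2–3 h embryos alone, 702 of 1050 did (66.9%, 64.0 to 69.6), close to the 65.4% of shared genes (63.7 to 67.1) and far from the 7.08% of genes with neither. The gap held at every gene length up to 50 kb. Among genes of 2 to 5 kb it was 10.7% of those of S2 cells alone against 57.3% of those of 2–3 h embryos alone, and among genes of 5 to 10 kb 26.1% against 78.6%. Of the peaks themselves, 8.11% of the S2 peaks in genes of S2 cells alone (6.98 to 9.41) and 60.9% of the 2–3 h peaks in genes of 2–3 h embryos alone (58.3 to 63.4) touched a 14–16 h peak.

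The chromosomes divided unevenly between the classes. Of the 627 genes of 2L with peaks in 1 list only, 498 were of S2 cells and 129 of 2–3 h embryos, and 3R had 517 of S2 cells and 122 of 2–3 h embryos. On 2R the counts were 310 of S2 cells and 160 of 2–3 h embryos, on 3L 220 and 279, and on the X 118 and 333. The share of S2 cells among such genes was 80.9% on 3R (77.7 to 83.8), 79.4% on 2L (76.1 to 82.4), 66.0% on 2R (61.6 to 70.1), 44.1% on 3L (39.8 to 48.5) and 26.2% on the X (22.3 to 30.4). Chromosome 4 had 9 genes of S2 cells alone and 16 of 2–3 h embryos alone, and the Y had 0 and 11. Of the 217 genes that changed towards 2–3 h embryos, 115 were on the X and 54 on 3L, while 251 of the 303 genes that changed towards S2 cells were on 2L, 2R and 3R.

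All peaks, within genes or outside them, followed the same division. The ratio of S2 peaks to 2–3 h peaks was 1.26 over all chromosomes. It was 1.96 on 2L, 1.56 on 3R, 1.51 on 2R, 0.903 on 3L and 0.635 on the X. Within chromosomes the ratio moved in long stretches, found in blocks of 1 Mb after the counts had been seen. On the X from 2 to 12 Mb there were 714 S2 peaks against 2351 2–3 h peaks, a ratio of 0.304, and 14 genes of S2 cells alone against 207 of 2–3 h embryos alone. The X from 12 Mb on had 2153 against 2155 peaks and 97 against 101 genes. On 3L the first 4 Mb had 1249 S2 peaks against 652 2–3 h peaks and 90 against 16 genes, while the rest of the arm had 2970 against 4005 peaks and 130 against 263 genes. On 3R from 26 Mb on there were 2203 against 883 peaks and 162 against 12 genes. Other stretches ran against their arms, with 312 against 386 peaks and 15 against 48 genes on 2R from 22 to 25 Mb, and 123 against 188 peaks and 6 against 14 genes on 3R from 22 to 23 Mb. DNA copy number and the reads behind each arm were not analysed here, so their part in these differences was not tested. With the widest peaks of each list, in equal numbers on each chromosome, 1169 genes were of S2 cells alone and 1282 of 2–3 h embryos alone.

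**Figure D4:**
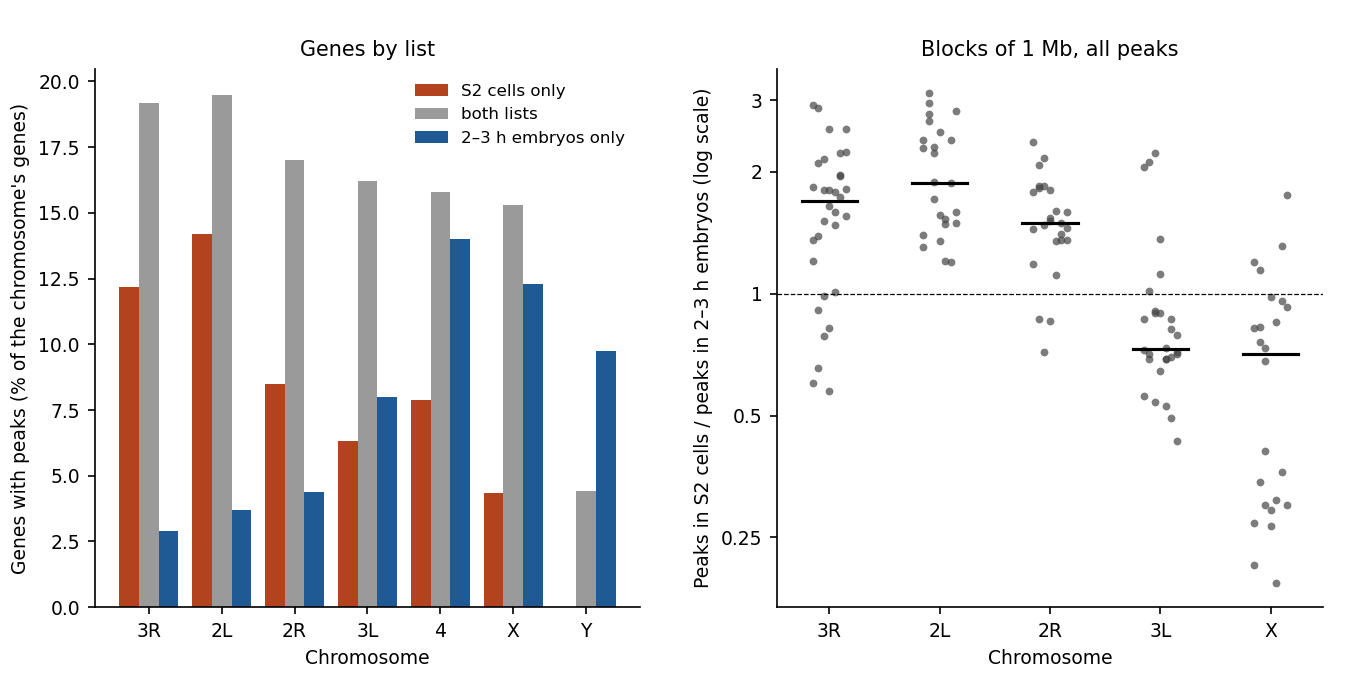
Left, genes with peaks in S2 cells only, in both lists and in 2–3 h embryos only, as a percentage of the chromosome's genes (y axis) for each chromosome (x axis). Right, ratio of S2 peaks to 2–3 h peaks (y axis, log scale) in blocks of 1 Mb with at least 50 peaks in 2–3 h embryos, with the median of each arm as a line. All blocks of 2L lie at 1.19 or above, the median of 3L is 0.728, and the X reaches down to 0.193.

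Genes of the classes differed in length and make-up. The median length was 2464 bp for genes of S2 cells alone, 3698 bp for genes of 2–3 h embryos alone, 7783 bp for shared genes and 1285 bp for genes with neither. Of 4424 genes of 1 to 2 kb, 379 had peaks in S2 cells only and 151 in 2–3 h embryos only. Of 721 genes of 20 to 50 kb, 50 were of S2 cells alone, 64 of 2–3 h embryos alone and 586 of both. Protein-coding genes made up 81.5% of genes of S2 cells alone (79.5 to 83.2), 83.7% of genes of 2–3 h embryos alone (81.4 to 85.8), 89.9% of shared genes and 78.4% of all genes. Long noncoding RNAs numbered 225 (13.5%) in S2 cells alone, 96 (9.14%) in 2–3 h embryos alone and 235 (7.53%) among shared genes, and made up 11.2% of all genes.

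In genes of 1 list only, peaks lay near gene ends more often than in shared genes, which are longer. For these positions a peak is counted once for each gene it overlaps. A centre within 500 bp of the gene start was found for 28.1% of S2 peaks in genes of S2 cells alone (26.2 to 30.1) and for 26.6% of 2–3 h peaks in genes of 2–3 h embryos alone (24.3 to 28.9). In shared genes it was 8.04% of S2 peaks and 8.61% of 2–3 h peaks. Among genes over 5 kb, exons away from both ends held 39.1% of all S2 peaks in genes of S2 cells alone (35.6 to 42.7). They held 28.4% of all 2–3 h peaks in genes of 2–3 h embryos alone (25.3 to 31.7). Introns held 47.5% of these S2 peaks (43.9 to 51.2) and 56.2% of these 2–3 h peaks (52.7 to 59.6). In shared genes over 5 kb the lists were alike, with 72.4% of S2 peaks and 71.5% of 2–3 h peaks in introns.

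Shared genes did not always share their peaks. Of the S2 peaks in shared genes, 55.5% touched a 2–3 h peak on the same strand (54.5 to 56.5), and 63.0% of the 2–3 h peaks touched an S2 peak (61.9 to 64.0). In 219 of the 3119 shared genes (7.02%) no peak of S2 cells touched a peak of 2–3 h embryos, and in 1425 (45.7%) every peak of either list did. Equal numbers could hide unequal widths. lola, a BTB transcription factor gene with 19 peaks in both lists, had 14973 bp covered in S2 cells and 10629 bp in 2–3 h embryos. The insulin receptor gene InR, with 10 peaks in both, had 4169 bp covered in S2 cells and 6823 bp in 2–3 h embryos. Sdb, with 2 peaks in both, had 870 bp and 6602 bp. The Y-linked dynein gene kl-2 had 1 peak in each list, of 4696 bp in S2 cells and 302 bp in 2–3 h embryos.

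Among the genes fixed as hemocyte markers, 9 of 12 had peaks in S2 cells and 8 in 2–3 h embryos. They were ush, with 15 against 5 peaks, Pxn with 9 against 3, srp with 3 against 2, drpr with 3 against 2 and Hml with 1 against 0, while Col4a1, vkg, Ppn and eater had equal numbers. No marker had more peaks in 2–3 h embryos, and NimC1, crq and He had none in either list. Of those with equal numbers, eater had 406 bp covered in S2 cells and 1031 bp in 2–3 h embryos. Col4a1 had 828 against 1163 bp, vkg 370 against 557 bp and Ppn 366 against 258 bp. srp is the GATA factor of blood cell fate, ush its Friend-of-GATA partner, and Pxn and Hml encode secreted proteins of mature hemocytes. Of the whole hemocyte list of 19 genes, 6 had more peaks in S2 cells, 4 equal numbers and 1 fewer. The exception was the X-linked crystal cell factor gene lz, with 0 against 3. Over all 5841 genes, 2570 (44.0%) had more peaks in S2 cells and 1626 (27.8%) more in 2–3 h embryos, and the median difference was 0. Peaks do not give expression, so the identity of the cells was not checked by this count.

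Immune genes behaved unevenly. Of 19 genes of Toll and Imd signalling, 3 had more peaks in S2 cells, 2 more in 2–3 h embryos and 3 equal numbers. The receptor gene Tl had 9 peaks in S2 cells against 2 in 2–3 h embryos, with 10 in 14–16 h embryos. Dif, the Rel factor of the larval and adult Toll response, had 4 against 0, and dl, its relative that patterns the embryo, 3 against 2. The X-linked kinase gene Tak1 had 0 against 1. None of the 14 antimicrobial peptide genes, which are short, had a peak in either list.

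Genes that pattern the early embryo had surpluses in either list. Of 11 gap and terminal genes, 2 had more peaks in S2 cells and 4 more in 2–3 h embryos. knrl, on 3L, had 1 against 6, its neighbour and relative kni 0 against 1, the X-linked head gap gene oc 1 against 4 and btd, also on the X, 0 against 1. Members on 2L, 2R and 3R gave 11 S2 peaks and 9 peaks of 2–3 h embryos, with ems at 1 against 0. Of 9 pair-rule genes none had more peaks in S2 cells, slp1, on 2L, had 0 against 2 and hairy (hry), on 3L, 1 against 3. Of 22 dorsoventral genes, 5 had more peaks in S2 cells and 4 more in 2–3 h embryos. The BMP antagonist gene sog had 2 against 11, and vnd and brk 0 against 1 each, and all 3 are on the X. The autosomal FGF ligand gene ths had 11 against 5, the GATA factor gene pnr 7 against 3 and the midline regulator sim 2 against 0, while the mesoderm factor gene twi on 2R had 5 against 6. Of 14 segment polarity genes, 4 had more in S2 cells and 4 more in 2–3 h embryos. The Wnt receptor gene fz2 on 3L had 5 against 10 and inv, the neighbour of en, 7 against 3. The ligand gene hh on 3R had 3 against 5 and its receptor gene ptc on 2R 4 against 5.

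All 8 Hox genes had peaks in both lists, S2 cells holding 63 in all and 2–3 h embryos 49. These genes are long, with a median of 30563 bp, and 81.3% of all genes of 20 to 50 kb had peaks in both lists. Ubx had 21 against 12, pb 5 against 3, Dfd 2 against 1 and Antp 23 against 22. Abd-B had 3 against 4. With the widest peaks of each list in equal numbers per chromosome, the differences of Ubx and Antp were -1 and -7, so their direction depended on how peaks were counted.

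Among 24 maternal and germline genes 13 had no peak, 8 had more peaks in S2 cells and 1, tsl with 0 against 1, more in 2–3 h embryos. Of these genes 20 lie on 2L, 2R and 3R, where 2030 of all genes had more peaks in S2 cells and 651 more in 2–3 h embryos. orb, a regulator of oocyte mRNA, had 10 against 4, the dynein adaptor gene BicD 7 against 4, the homeobox gene cad 3 against 1, and exu, vas and gcl 1 against 0 each. Only 2 members are on the X, both with no peak in either list. Of 35 cell cycle genes, 3 had more peaks in S2 cells and 8 more in 2–3 h embryos, on the autosomes as well. E2f1, the activator of S-phase genes, had 5 against 10, CycE 4 against 6, and CycB, CycB3, dap and Dp 0 against 1 each. The checkpoint kinase gene grp went the other way with 6 against 3. The X-linked anaphase-promoting complex activator fzr had 0 against 2. Of 12 early zygotic genes, 1 had more peaks in S2 cells, 1 more in 2–3 h embryos and 7 none in either list.

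Of 38 genes of axon guidance and adhesion, 17 had more peaks in S2 cells and 12 more in 2–3 h embryos. By the rule above 14 changed, 9 of them towards S2 cells. Over all genes, 1.70% changed towards S2 cells and 1.22% towards 2–3 h embryos. The members are long, with a median of 40274 bp. All genes that changed had medians of 31065 bp (towards S2 cells) and 35823 bp (towards 2–3 h embryos). The part of gene length in this count was not tested. On 2L, 2R and 3R, 17 members had more in S2 cells and 2 fewer, with 255 against 109 peaks in all. On the X and 3L none of 12 members had more in S2 cells, 10 had more in 2–3 h embryos and 2 equal numbers. Beside Sema1a and Ten-a, the receptor phosphatase gene Ptp99A had 25 against 9 and Lar 34 against 20. Over all genes of the X, 216 had more in S2 cells and 487 more in 2–3 h embryos.

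Of 26 genes of Notch and EGFR signalling, 12 had more peaks in S2 cells, 6 more in 2–3 h embryos, 2 equal numbers and 6 none. On 2L, 2R and 3R, 11 had more in S2 cells and 2 more in 2–3 h embryos, against 2030 and 651 of all genes there. Of all 5841 R-loop genes, 44.0% had more in S2 cells and 27.8% more in 2–3 h embryos, which also bears on the lists that follow. The X-linked receptor gene N had 2 against 14, with 13 in 14–16 h embryos. The ETS factor gene pnt had 17 against 6, the inhibitor gene sty on 3L 11 against 5 and the Notch coactivator gene mam 14 against 10, while aos, which binds the EGF ligand, had 0 against 2. In JAK-STAT and Pvr signalling, 6 of 12 had more in S2 cells and 3 more in 2–3 h embryos. The phosphatase gene Ptp61F had 23 against 11 and the ligand gene Pvf3 14 against 8. Stat92E, the X-linked receptor gene dome and Pvr each had 1 against 0, and the feedback inhibitor gene Socs36E on 2L had 0 against 3. Of 15 ecdysone response genes, 7 had more in S2 cells and 5 more in 2–3 h embryos, with the X-linked Hr4 at 10 against 5, Hr39 at 6 against 2, Eip93F at 5 against 9 and ftz-f1 at 2 against 5.

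Polycomb and trithorax genes, which hold and oppose silencing, had 30 peaks in each list, and 9 of the 21 had peaks in both. Asx had 4 against 0, E(z), the histone methyltransferase of Polycomb silencing, 2 against 0, and mor 2 against 0. On the X, ph-p had 0 against 2 and ph-d 0 against 1. On 3L, phol and ash1 had 0 against 1 each and Trl, the GAGA factor gene, 2 against 5. Psc, on 2R, had 5 against 8. On 2L, 2R and 3R, 5 members had more peaks in S2 cells and 1 more in 2–3 h embryos. These counts were 1 and 3 on 3L, and 0 and 2 on the X. For all genes they were 2030 and 651 on 2L, 2R and 3R, 313 and 447 on 3L, and 216 and 487 on the X. Of 15 BTB transcription factor genes, 7 had more in S2 cells and 6 more in 2–3 h embryos. Among them lolal alone had peaks in 1 list only, with 0 against 2. The BTB genes are long, with a median of 36848 bp, and 81.3% of all genes of 20000 to 50000 bp had peaks in both lists. Of 21 sarcomere genes, 9 had more in S2 cells, 7 more in 2–3 h embryos, 1 an equal number and 4 none. Of all 5841 R-loop genes, 44.0% had more in S2 cells and 27.8% more in 2–3 h embryos. The titin-like gene sls had 16 against 9 and covered 23098 bp in S2 cells and 12197 bp in 2–3 h embryos, and muscle myosin heavy chain, Mhc, had 9 against 5. Of 12 matched genes that process R-loops, 2 had more in S2 cells and 1 more in 2–3 h embryos. The exception, Tdrd3, whose product partners a topoisomerase, had 0 against 1, and Top1 had 2 against 1.

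Of 86 ribosomal protein genes, which are short, 23.3% had a peak in at least 1 list, against 32.8% of all genes, and their median length was 1344 bp. Of all genes of 1 to 2 kb, 80.4% had no peak. The ribosomal protein genes with peaks were 8 in S2 cells only, 4 in 2–3 h embryos only and 8 in both, S2 cells holding 18 peaks and 2–3 h embryos 12. Of 4 dosage compensation genes with peaks, none had more in S2 cells, and msl-1 and mof had 0 against 1 each. Of 115 histone genes, His1 genes included, 23 had peaks in S2 cells only, 21 in 2–3 h embryos only and 66 in both. Most of them are copies in a tandem cluster on 2L. How reads were shared among the copies is not given in the sources used here, so these counts are uncertain.

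**Figure D5:**
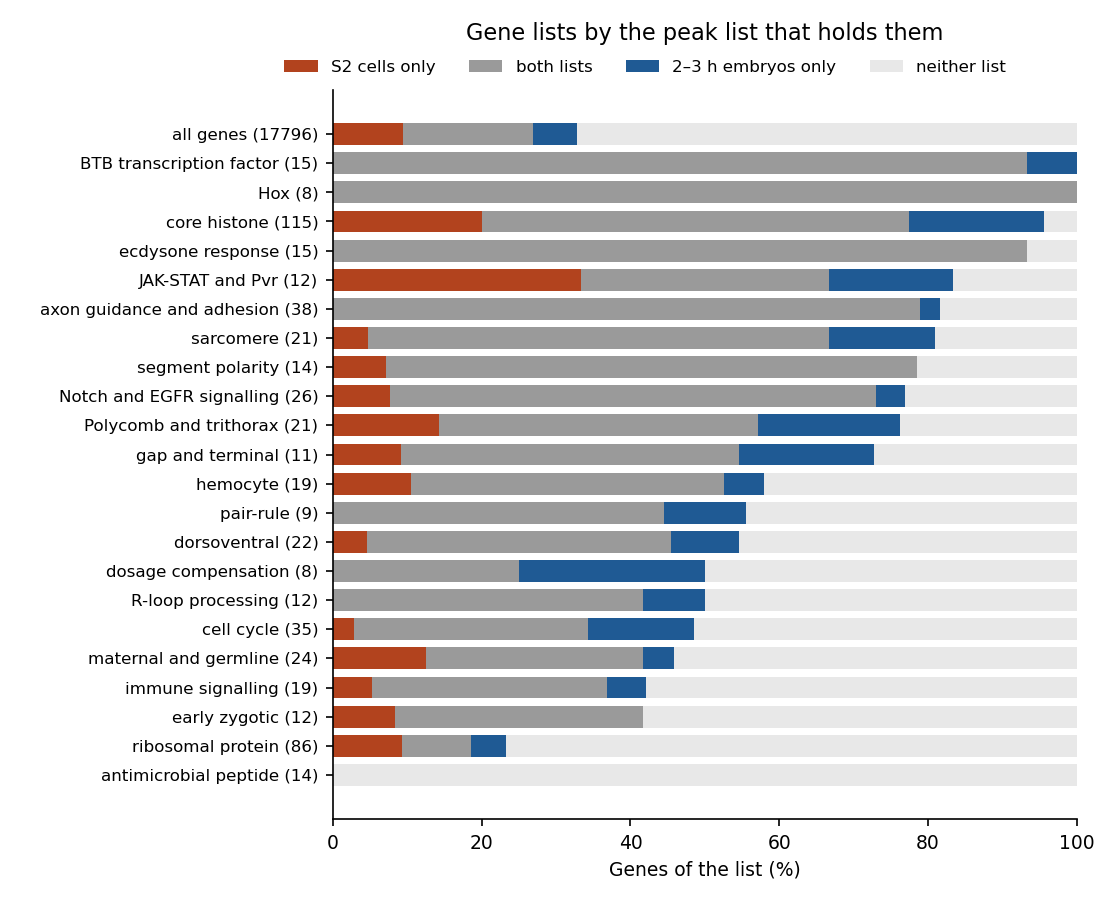
Genes of each list by the peak list that holds them, as a percentage of the genes of the list (x axis), with the number of genes in parentheses and all genes at the top. The list labelled core histone also holds His1 genes. All 8 Hox genes and 14 of 15 BTB transcription factor genes have peaks in both lists. Their median lengths are 30563 bp and 36848 bp, and 81.3% of all genes of 20000 to 50000 bp have peaks in both lists. Of 12 genes of JAK-STAT and Pvr signalling, 4 have peaks in S2 cells only, each with 1 peak. Over all genes, 9.40% have peaks in S2 cells only. The antimicrobial peptide genes, which are short, have no peak in either list.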

How the data were processed

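Genomic DNA of S2 cells and Oregon R embryos was profiled by ssDRIP-seq, and the authors trimmed and aligned the reads to dm6, and MACS2 peaks were called on the pooled replicates against the RNase H sample. Whether overlap with peaks called against input was also required is described differently within the study, so the control behind a peak is uncertain. Trimmomatic, Bowtie and SAMtools are also named in the submitters' processing notes, without versions. The deposited peak lists give position and strand only, with no height, score or count. Peaks paired across strands by 90% reciprocal overlap, which the methods say were removed, numbered 0 in each list. At 50% reciprocal overlap, paired peaks made up 9.89% of the S2 list, 11.4% of the 2–3 h list and 44.5% of the 14–16 h list. Genes were taken from RefSeq with FlyBase release 6.54, on the 7 chromosomes that carry peaks. Peaks were assigned to genes by at least 1 bp on the gene's strand and counted for each gene they overlap. Python 3.11.15, NumPy 2.4.6, pandas 2.3.3, SciPy 1.17.1 and matplotlib 3.10.9 were used, and the scripts were tested on simulated data. Sequence was read from dm6. No test was made, since each sample type has 1 list.

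The genes named were drawn from the 6 with the largest difference each way and the 6 of each list alone with the most peaks. Also drawn on were the 5 shared genes with the most peaks, and the 3 of equal number with the largest width difference each way. Members of 22 gene lists were added, up to 4 per list and those in 1 list only. Not all of these genes are described. Some list members outside this rule were named after their values were seen. The genes and lists were chosen with earlier results of these data known. Of the symbols listed, RnaseH2A, abrupt and pfk were not matched. Alternatives comprised 10 planned settings and 2 added later.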

Additional observations from a re-analysis of the deposited data

How the results depend on the processing

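Counts of genes with peaks in 1 list only stayed within 1.5 times of the reported value under all 12 alternatives, at 1169 to 2028 for S2 cells and 717 to 1315 for 2–3 h embryos. Their order turned round with as many of the widest S2 peaks as 2–3 h peaks (1301 against 1315) and with the widest peaks in equal numbers per chromosome (1169 against 1282). That setting and the one without chromosome X were chosen after seeing the data. Membership moved more than the counts. With peaks wider than the median of their list, 711 of the 1672 genes of S2 cells alone kept their class. Of the 1050 genes of 2–3 h embryos alone, 497 did. With equal numbers per chromosome, 1085 genes of S2 cells alone and 912 of 2–3 h embryos alone kept theirs. Counting peaks on either strand gave 1406 shared genes with more peaks in S2 cells and 928 with more in 2–3 h embryos, and 558 and 348 changed genes. Peaks wider than the median of their list gave 1760 shared genes, 490 with more peaks in S2 cells and 346 with more in 2–3 h embryos, and 186 and 132 changed genes. Equal numbers per chromosome gave 556 shared genes with more peaks in S2 cells and 649 with more in 2–3 h embryos, and 150 and 238 changed genes, so both orders turned round. With as many of the widest S2 peaks these counts were 667 and 681 shared genes and 198 and 295 changed genes, again turned round. Without the X, 102 genes changed towards 2–3 h embryos. The difference in peaks, S2 cells minus 2–3 h embryos, changed sign in 9 of the 196 genes followed. With wider peaks it was 1 for hry and Pvf2, -1 for pum and -2 for pb and fru. With as many of the widest S2 peaks it was -4 for Antp and -2 for pum. Without peaks paired across strands it was -2 for chinmo. With equal numbers per chromosome it was -1 for Ubx and pb, -7 for Antp, -6 for pum and chinmo, -4 for fru and -2 for Pvf3. Fewer peaks or genes enter most of these settings by construction. No paired analysis was possible because the replicates are pooled in each list, and for the same reason no replicate could be left out. The lists hold no depth, so a gene without a peak may hold R-loops below what was called.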
